A study of Homo sapiens with 20 samples.

Results

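Peaks of BMAL1 and HIF2α were located around 7 genes of the renal lineage, PAX2, PAX8, HNF4A, LHX1, EMX2, OSR1 and EYA2. They encode transcription factors, except that EYA2 is a coactivator. A peak was taken as belonging to a gene where it overlapped the GRCh37 gene body or the 50 kb to either side of it. This gave 22 of the 12171 peaks in the 4 lists analysed, and they merged into 14 separate regions. The rule names the 7 genes and uses no peak value, but they were proposed when earlier results of these data were known.

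The data are CUT&RUN profiles of A498, a kidney adenocarcinoma line used as a model of clear cell renal cell carcinoma (ccRCC). In CUT&RUN a nuclease tethered to an antibody releases the DNA beside the bound protein. All cells carried a lentiviral pLKO.1 shRNA and were selected with puromycin, and the shRNA was either a scramble control (shCNT) or directed against BMAL1 (shBMAL1). The 20 libraries fall into 6 groups, 4 libraries for each combination of shRNA with an antibody to BMAL1 or to HIF2α and 2 for IgG with each shRNA. A498 is 1 line. The study's methods call the CUT&RUN replicates biological, whereas its reporting summary calls them technical. Both give fewer for each BMAL1 and HIF2α group than the libraries that the labels list. Neither RNA nor protein of A498 was analysed here, so the line's label and the level of the 7 factors were not checked.

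One list of peaks was available for each BMAL1 and HIF2α group. No list has a replicate, so no difference between lists could be set against replicate spread and no p-value was computed. Intervals below are exact 95% intervals for counting error alone, and they treat every fragment as an independent molecule. The BMAL1 lists held 2350 peaks (shCNT) and 4261 (shBMAL1) and the HIF2α lists 2361 and 3199, so the BMAL1 list labelled shBMAL1 was the longer of the BMAL1 pair. The genome background of a list was taken as the lowest local background recovered at any of its peaks, and read numbers were not checked. By that measure the shBMAL1 lists were the shallower ones, at 0.0839 and 0.109 fragments for BMAL1 and HIF2α against 0.168 and 0.209 under shCNT. At that background 3 fragments sufficed for a peak in the shBMAL1 lists and 4 in the shCNT lists.

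PAX2, PAX8, LHX1 and OSR1 are among the factors that specify and maintain the embryonic kidney lineage, and PAX8 stays expressed in most ccRCC. EMX2 is a homeobox factor needed for growth of the urogenital system, EYA2 is a phosphatase and coactivator that works with sine oculis homeobox proteins, and HNF4A is a nuclear receptor of the mature proximal tubule. HIF2α binds the hypoxia response element (HRE) and BMAL1 with CLOCK binds the E-box. HRE cores were searched as ACGTG or GCGTG and E-boxes as CACGTG, on both strands, so that every E-box also contains an HRE core.

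The sequences on which the description turns are shown first, in GRCh37, plus strand, 5′ to 3′, in lower case with HRE cores in capitals. A core on the minus strand therefore reads CACGT or CACGC. For PAX2, HNF4A and EYA2 the 200 bp around the summit of the best-ranked region that held a core is given, at chr10:102491082-102491281, chr20:43071420-43071619 and chr20:45594257-45594456. Each is the window of the HIF2α peak of shCNT, shCNT and shBMAL1, respectively.
PAX2 region 2: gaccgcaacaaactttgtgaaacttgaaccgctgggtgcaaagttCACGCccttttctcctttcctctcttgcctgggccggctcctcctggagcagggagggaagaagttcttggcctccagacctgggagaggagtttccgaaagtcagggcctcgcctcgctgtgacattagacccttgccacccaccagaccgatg
HNF4A region 3: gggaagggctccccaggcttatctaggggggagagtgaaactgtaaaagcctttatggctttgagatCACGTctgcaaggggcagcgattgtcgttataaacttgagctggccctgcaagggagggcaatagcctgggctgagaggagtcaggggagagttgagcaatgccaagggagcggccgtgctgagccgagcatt
EYA2 region 2: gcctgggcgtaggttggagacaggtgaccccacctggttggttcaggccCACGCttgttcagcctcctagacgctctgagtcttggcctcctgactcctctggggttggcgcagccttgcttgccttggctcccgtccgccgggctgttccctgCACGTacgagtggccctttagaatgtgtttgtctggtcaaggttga

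The strongest peak of the 7 genes, EYA2 region 1, had no core in its summit window (chr20:45587975-45588174 in the shBMAL1 HIF2α list). Of its 10 cores, 8 lay together downstream of the summit, in the 145 bp at chr20:45588259-45588403, and the other two lay upstream of the summit. Both stretches were chosen for display after the values were seen, because they separate the summit from the motif.
EYA2 region 1 summit: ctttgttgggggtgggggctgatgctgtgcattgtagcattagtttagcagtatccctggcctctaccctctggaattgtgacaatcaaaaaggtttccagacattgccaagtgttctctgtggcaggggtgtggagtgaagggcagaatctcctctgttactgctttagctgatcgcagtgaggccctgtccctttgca
EYA2 region 1 HRE cores: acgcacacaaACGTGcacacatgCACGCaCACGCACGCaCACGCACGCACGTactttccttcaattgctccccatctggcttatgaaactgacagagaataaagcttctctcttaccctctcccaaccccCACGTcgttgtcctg

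Peaks were found at 6 of the 7 genes. At least 1 list had a peak in 48.0% of the windows of all 20163 protein-coding genes, drawn in the same way. The windows of the 7 genes were longer than usual, with a median of 163 kb against 127 kb. The shCNT BMAL1 list had peaks at 3 of the 7 genes (23.0% of all genes), the shBMAL1 BMAL1 list at 5 (32.3%), the shCNT HIF2α list at 3 (21.1%) and the shBMAL1 HIF2α list at 3 (24.5%). A HIF2α peak under both shRNAs was present at HNF4A and EYA2, and at 15.0% of all genes. EYA2 held 8 of the 22 peaks and HNF4A 7. PAX2 held 3, PAX8 held 2, LHX1 and OSR1 held 1 each, and EMX2 held 0.

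**Figure D1:**
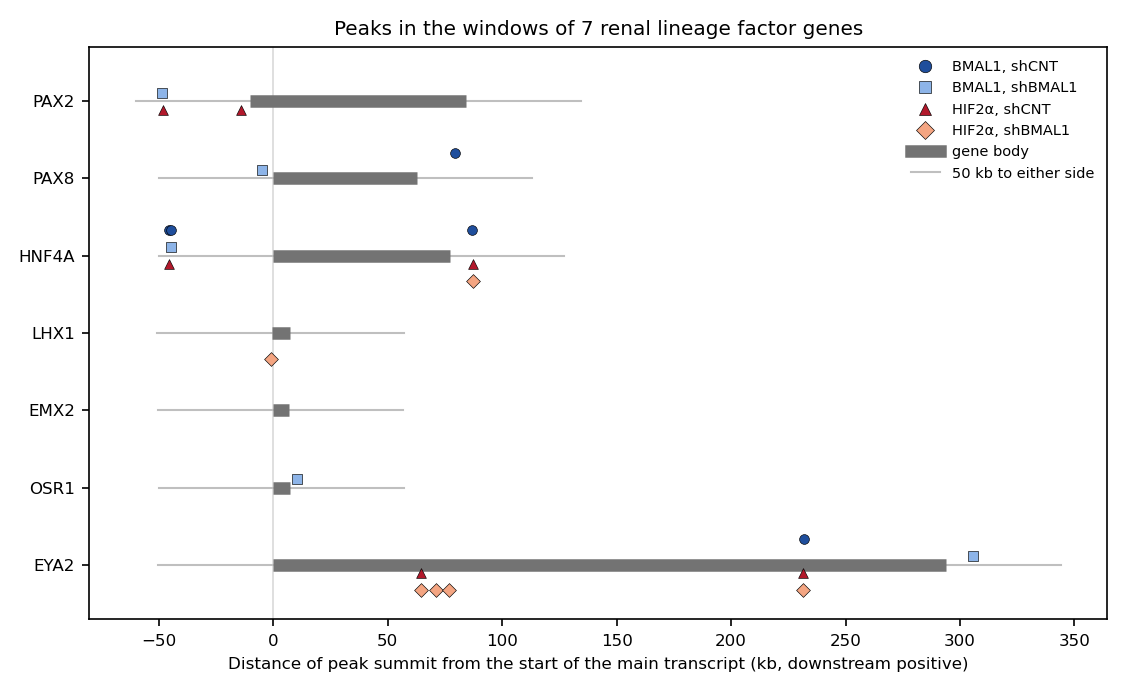
Position of each peak summit relative to the start of the main transcript of its gene (x axis, kb, downstream positive), for the 7 genes (rows). Bars are gene bodies, thin lines the 50 kb to either side, and symbols the 4 lists; the summits inside a gene body are the 7 in EYA2, and EMX2 has none in its window.

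Of the 22 summits, 7 lay inside the gene body, all in introns of EYA2, whose body of 294 kb is the longest of the 7 genes. The nearest protein-coding start belonged to the gene itself for 13 peaks. Neither share was computed over all peaks. Starts were those of transcripts that the annotation tags as basic. Only 2 summits lay within 1 kb of such a protein-coding start, and that start was the one of FITM2, a neighbour of HNF4A. Over all lists, 36.1% of peaks lay within 1 kb of such a start. The LHX1 summit was 0.444 kb outside the annotated gene body, but 1.13 kb from the nearest such start.

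EYA2 carried the strongest HIF2α signal. EYA2 (ENSG00000064655, chr20:45523263-45817492, plus strand) has a body of 294 kb. Region 1 (chr20:45587614-45588497) is in intron 1, with its summit 64.6 kb downstream of the main start and 30.6 kb upstream of another, nearer EYA2 start. In the shBMAL1 HIF2α list it had a pileup of 52 fragments at the summit (38.8 to 68.2), a deposited fold of 45.3 and rank 3 of 3199 by deposited −log10 p. The deposited fold is the pileup over the local background after 1 is added to each, so it is far below the plain ratio. In the shCNT HIF2α list the pileup was 24 (15.4 to 35.7), the fold 20.7 and the rank 90 of 2361. The summits were 6 bp apart. The percentile of the peak in its list, where 100 is the strongest, was thus 99.9 and 96.2. Neither BMAL1 list had a peak at region 1.

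Because the lists differ in genome background, each pileup was also divided by that of its list, which is called the scaled height here. Spike-in signal was not used. EYA2 region 1 had a scaled height of 115 (73.6 to 171) under shCNT and 475 (355 to 623) under shBMAL1. The ratio of shBMAL1 to shCNT was 4.14 (2.5 to 7.01). Over all 1318 HIF2α peaks found under both shRNAs the median ratio was 1.53, with quartiles of 1.19 and 1.91, and 0.607% of them had a higher ratio than EYA2 region 1. The pileup itself was also higher under shBMAL1, so the direction did not depend on the scaling. With 1 list for each shRNA this difference has no replicate check.

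**Figure D2:**
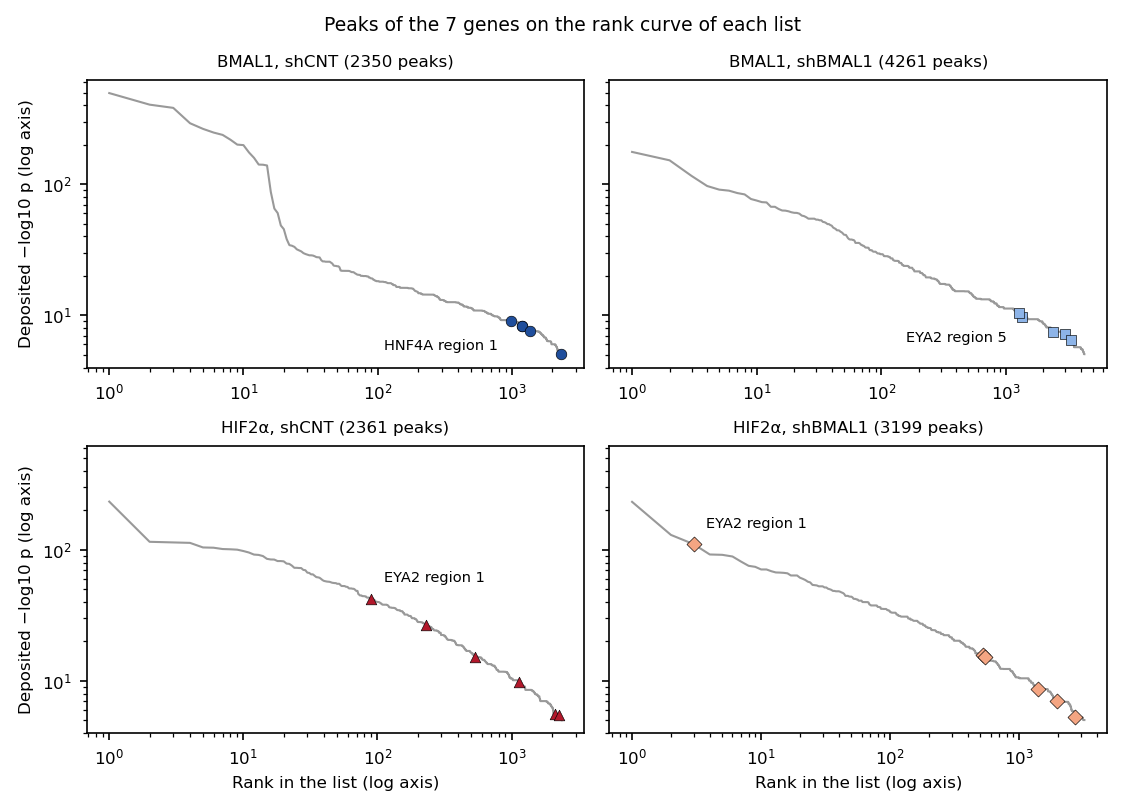
Deposited −log10 p (y axis, log scale) against rank in the list (x axis, log scale), 1 panel for each list. Grey lines are all peaks and symbols the peaks of the 7 genes, with the strongest named; EYA2 region 1 stands at rank 3 under shBMAL1 and rank 90 under shCNT, while in the BMAL1 lists the best ranks are 985 and 1284.

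The 883 bp peak of EYA2 region 1 under shBMAL1 contained 10 HRE cores and the 753 bp peak under shCNT contained 8, which are the 8 in capitals above. That is 11.3 and 10.6 cores per kb, against 4.23 and 4.7 per kb over all peaks of the same lists. As many cores or more were present in 22 of 3199 peaks (0.688%) under shBMAL1 and in 51 of 2361 (2.16%) under shCNT, and longer peaks hold more cores. The core nearest to the summit was 194 and 188 bp away. Most of the cores stand in a short tract of alternating CA and CG dinucleotides. An E-box was present only in the wider shBMAL1 peak, which had 1 upstream of the summit. This E-box supplies the other 2 cores, since it reads as a core on both strands. Outside the summit windows, the shBMAL1 peak also held 2 AP-1 motifs (TGAGTCA or TGACTCA) and the shCNT peak 1.

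Region 2 of EYA2 (chr20:45593942-45594504), also in intron 1 and 6.28 kb downstream of region 1, was called in the shBMAL1 HIF2α list alone. Its pileup was 9 (4.12 to 17.1), its scaled height 82.2 (37.6 to 156) and its rank 543, at percentile 83.0. HRE cores stood 51 bp before and 54 bp after the summit, and the whole peak held 6, or 10.7 per kb. Region 3 (chr20:45599957-45600123), a further 5.7 kb downstream in intron 1, was likewise found in the shBMAL1 HIF2α list alone, with a pileup of 5 (1.62 to 11.7), percentile 52.1 and no HRE core. Regions 1 to 3 thus lie within 1 intron of the main transcript. The summits of regions 2 and 3 were 24.3 and 18.6 kb upstream of the nearest EYA2 start.

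Region 4 of EYA2 (chr20:45754636-45755312) is in intron 9, 155 kb from region 3, and was called in 3 lists. The pileup was 10 (4.8 to 18.4) for shCNT HIF2α, 7 (2.81 to 14.4) for shBMAL1 HIF2α and 5 (1.62 to 11.7) for shCNT BMAL1. Their percentiles were 76.3, 38.3 and 37.7. Ranked by pileup in place of −log10 p, the HIF2α peaks stood at similar percentiles of 69.1 and 68.2, and the local background was 0.209 fragments under shCNT and 0.537 under shBMAL1. The BMAL1 peak met the shCNT HIF2α peak by 14 bp only, its summit was 241 bp away, and its window held no HRE core. The summits of the HIF2α peaks were 286 bp apart, and an HRE core was in the summit window of the shCNT one, 83 bp after the summit. Region 5 (chr20:45829315-45829500), 11.9 kb past the end of the gene, was a peak of the shBMAL1 BMAL1 list with a pileup of 10 (4.8 to 18.4) at percentile 69.8. It had neither an E-box nor an HRE core.

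In all, 4 shBMAL1 HIF2α peaks lay in the EYA2 window. At least 4 were found in 1.07% of all gene windows, and in 1.88% of the 852 windows at least as long as the 394 kb of EYA2.

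HNF4A (ENSG00000101076, chr20:42984339-43061485, plus strand) had 7 peaks, none within its body and none with HNF4A as the nearest protein-coding start. Region 3 (chr20:43071235-43071724) lies about 10.1 kb past the end of the gene, in an intron of the noncoding gene LINC01620. Its HIF2α summits were 87.2 kb from the main HNF4A start, and the nearest protein-coding start was that of TTPAL, 33.0 kb away. The shCNT HIF2α peak had a pileup of 18 (10.7 to 28.4), a fold of 14.4 and rank 229, at percentile 90.3. The shBMAL1 HIF2α peak had a pileup of 12 (6.2 to 21), a fold of 9.57 and rank 521, at percentile 83.7. Summits were 23 bp apart and the same HRE core, shown in the HNF4A sequence above, stood 33 and 56 bp before them.

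A weak shCNT BMAL1 peak overlapped HNF4A region 3 as well. It had a pileup of 4 (1.09 to 10.2) and percentile 0.34, with its summit 279 bp from that of the shCNT HIF2α peak. It was therefore among the lowest peaks of its list while the HIF2α peaks were among the higher ones of theirs.

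At the shared HIF2α peaks of HNF4A region 3 and EYA2 region 4 the shRNAs did not separate. The scaled height of HNF4A region 3 was 86.2 (51.1 to 136) under shCNT and 110 (56.7 to 192) under shBMAL1, a ratio of 1.27 (0.559 to 2.79). For EYA2 region 4 it was 47.9 (23 to 88) and 64 (25.7 to 132), a ratio of 1.34 (0.432 to 3.89). Both intervals include a ratio of 1, and the direction turned with the scaling, since the pileups themselves were lower under shBMAL1. The ratio was higher than these in 66.7% and 63.7% of the shared HIF2α peaks.

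**Figure D3:**
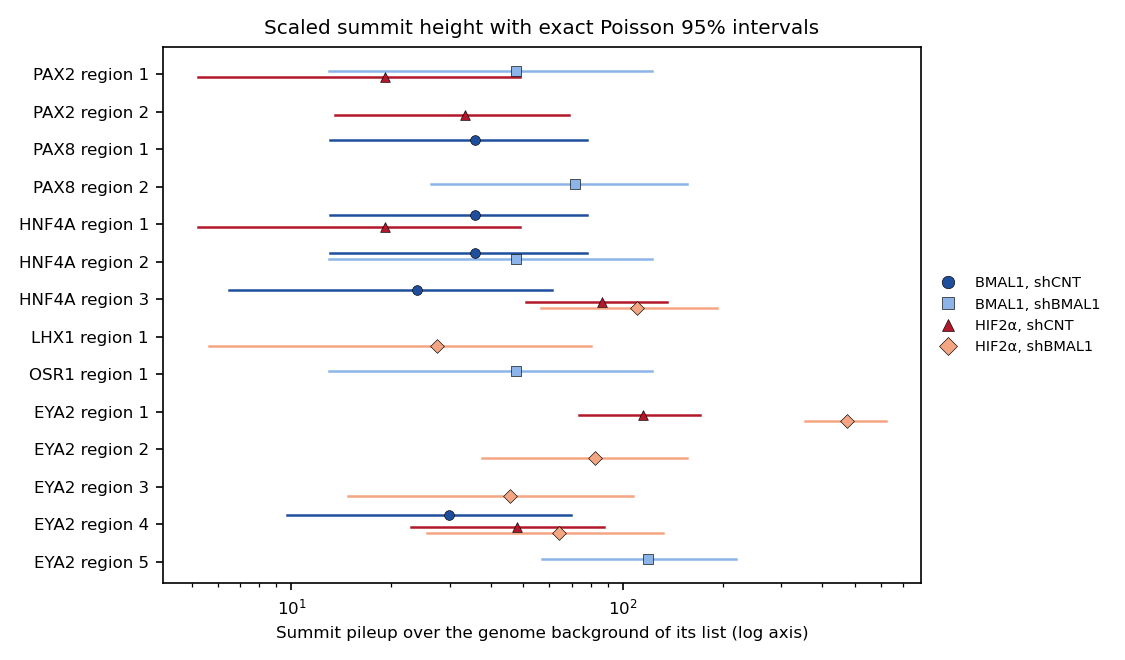
Scaled summit height (x axis, log scale), which is the pileup divided by the genome background of its list, for each of the 14 regions (rows). Symbols are the 4 lists and lines exact Poisson 95% intervals; the HIF2α intervals of EYA2 region 1 do not overlap between shRNAs (73.6 to 171 and 355 to 623), whereas those of HNF4A region 3 and EYA2 region 4 do.

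The other HNF4A peaks were at the neighbouring gene FITM2, which encodes a protein of lipid droplet formation. Region 1 (chr20:42938725-42938872) was in a FITM2 intron 1058 bp from the FITM2 start at the HIF2α summit. The shCNT BMAL1 peak there had a pileup of 6 (2.2 to 13.1) at percentile 57.4, and the shCNT HIF2α peak a pileup of 4 (1.09 to 10.2) at percentile 3.88. Their summits were 5 bp apart, the closest of any BMAL1 and HIF2α pair here, with an HRE core 14 and 9 bp away. Region 2 (chr20:42939504-42939775), 0.902 kb further on, was the only region of the 14 with BMAL1 peaks under both shRNAs. The pileup was 6 at percentile 48.2 under shCNT and 4 at percentile 29.6 under shBMAL1, with summits 161 and 306 bp from the FITM2 start. This region was rich in G and C, at 69.5% and 68.5% of the summit windows, and held HRE cores and the Sp1 motif GGGCGG in both.

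PAX2 (ENSG00000075891, chr10:102495153-102589701, plus strand) had peaks upstream only. Region 1 (chr10:102456567-102456997) is intergenic, 38.5 kb before the gene. A shBMAL1 BMAL1 peak with a pileup of 4 at percentile 37.7 overlapped a shCNT HIF2α peak with a pileup of 4 at percentile 7.52, and the summits were 252 bp apart. These peaks came from cells of different shRNAs. None of the motifs searched was in either window. Region 2 (chr10:102491136-102491288) was a shCNT HIF2α peak 3971 bp upstream of the nearest PAX2 start, with a pileup of 7 (2.81 to 14.4) and rank 1128, at percentile 52.1. Its HRE core, 55 bp before the summit, fell outside the called interval.

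PAX8 (ENSG00000125618, chr2:113973574-114036498, minus strand) had BMAL1 peaks only. Region 2 (chr2:114041267-114041443) lies 4894 bp upstream of the PAX8 start and was found under shBMAL1, with a pileup of 6 (2.2 to 13.1) and rank 1353, at percentile 66.9. Its window, chr2:114041292-114041491, held no HRE core. It held the only AP-1 motif (TGAGTCA or TGACTCA) in the 22 windows, 11 bp before the summit, and the sequence is given with that motif in capitals. It too was picked after its values were seen.
PAX8 region 2: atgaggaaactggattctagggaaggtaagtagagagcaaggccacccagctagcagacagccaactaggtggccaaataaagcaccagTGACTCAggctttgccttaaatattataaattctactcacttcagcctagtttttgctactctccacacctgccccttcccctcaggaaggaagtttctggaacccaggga
Region 1 of PAX8 (chr2:113957005-113957181) was a shCNT BMAL1 peak in an intron of the adjacent gene PSD4, 16.4 kb past the end of PAX8, with a pileup of 6 at percentile 48.2.

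LHX1 and OSR1 had 1 weak peak each. At LHX1 (ENSG00000273706, chr17:35294084-35301912, plus strand) a shBMAL1 HIF2α peak (chr17:35293618-35293753) stood 1.13 kb before the main start, in an intron of the divergent noncoding gene LHX1-DT. Its pileup was 3 (0.619 to 8.77), the fewest that list allows, and it shared its −log10 p with the others of a tie of 389 peaks at percentile 9.13. At OSR1 (ENSG00000143867, chr2:19551246-19558384, minus strand) a shBMAL1 BMAL1 peak (chr2:19547942-19548104) lay 3.21 kb past the end of the gene, with a pileup of 4 at percentile 20.8. Both peaks lacked E-boxes and HRE cores.

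EMX2 (ENSG00000170370, chr10:119301956-119309057, plus strand) had no peak in its window. The nearest was a shCNT HIF2α peak 99.3 kb from the gene (chr10:119202080-119202630), with a pileup of 10 at percentile 74.5. At these depths a site with fewer than 3 or 4 fragments could not be called, so weaker occupancy there was not detectable.

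**Figure D4:**
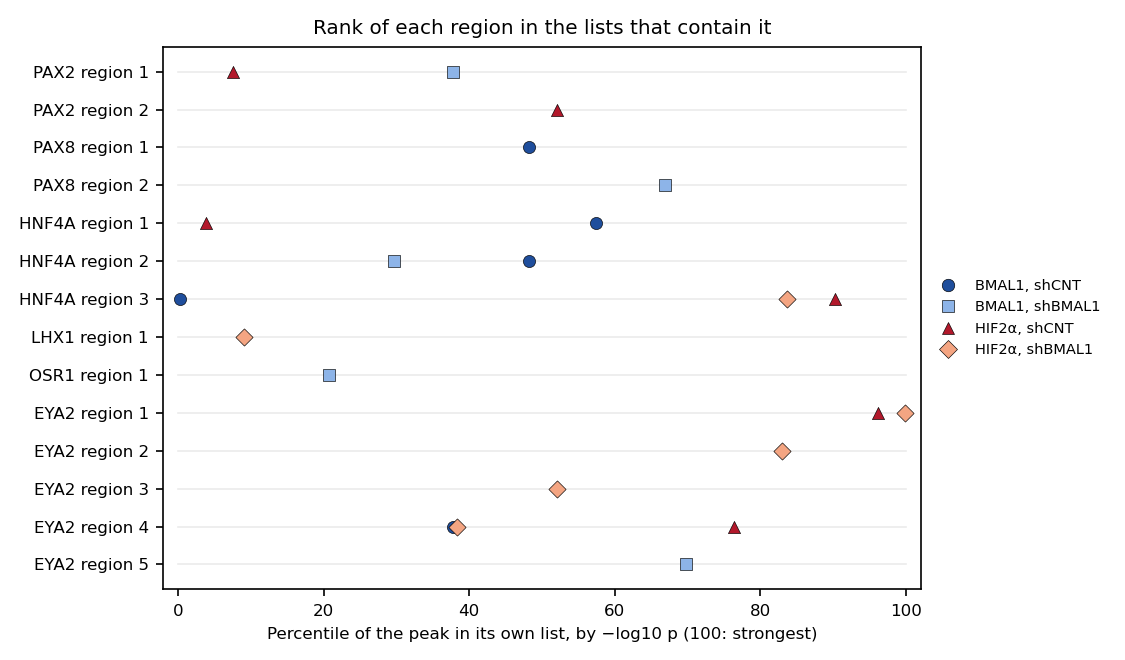
Percentile of each peak within its own list by deposited −log10 p (x axis, 100 the strongest), for the 14 regions (rows), with symbols for the 4 lists. The 3 peaks above percentile 90 are the HIF2α peaks of EYA2 region 1 and the shCNT HIF2α peak of HNF4A region 3, and the lowest is the BMAL1 peak of HNF4A region 3 at 0.34.

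The peaks of the 7 genes spread over the whole range of ranks. Of the 22 peaks, 11 stood above percentile 50 of their list and 11 below. The 3 peaks in the top 10% were the HIF2α peaks of EYA2 region 1 under both shRNAs and the shCNT HIF2α peak of HNF4A region 3. Each list has 10% of its peaks there by definition, so their number alone is not a trait of these genes. The best BMAL1 peaks reached percentile 57.4 under shCNT, at HNF4A region 1, and percentile 69.8 under shBMAL1, at EYA2 region 5.

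Of the 14 regions, 8 were in 1 list, 4 in 2 lists, 2 in 3 lists and 0 in all 4. This split was not made over the merged regions of the whole lists, so these counts have no background share. For the shCNT BMAL1 list, 1 of 5 peaks was overlapped by the same antibody under the other shRNA (47.1% of the whole list), and for the shBMAL1 BMAL1 list 1 of 5 (26.1%). For HIF2α it was 3 of 6 under shCNT (55.8%) and 3 of 6 under shBMAL1 (41.2%). Together 8 of 22 peaks, or 36.4% (17.2% to 59.3%), had such a match, and 39.9% of all peaks did, which is inside the interval. The 8 peaks form 4 overlapping pairs, each counted from both sides, and the 22 peaks fall in 14 regions, so they are not independent and this interval is too narrow.

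Overlap of the antibodies within an shRNA was found under shCNT, in HNF4A regions 1 and 3 and EYA2 region 4. There 3 of 5 BMAL1 peaks met a HIF2α peak (25.0% of the list) and 3 of 6 HIF2α peaks met a BMAL1 peak (24.9%). Under shBMAL1 it was 0 of 5 (up to 52.2%; 21.2% of the list) and 0 of 6 (up to 45.9%; 28.4%). With so few peaks these intervals contain the shares of the whole lists, the shCNT ones included (14.7% to 94.7% and 11.8% to 88.2%). In 2 of the 3 overlaps the summits were over 200 bp apart.

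Depth bears on absence from a list. Of the 14 peaks without a match for the same antibody, 10 would have had enough fragments for a peak in the other list at the same scaled height, but only for 3 was the whole interval above the number needed. These were PAX8 region 2 at 12 fragments (4.4 to 26.1), EYA2 region 2 at 17.2 (7.85 to 32.6) and EYA2 region 5 at 20 (9.59 to 36.8), each against a need of 4 in the shCNT list. Every unmatched shBMAL1 peak was among the 10, since even the 3 fragments at LHX1 scale to 5.73 at the shCNT background. The count was not made over all unmatched peaks of the lists, so it is not a trait of these genes. For the other peaks without a match, a site of the same height could have been missed by counting error. The same holds for PAX8 region 2 and EYA2 regions 2 and 5, because the interval carries only the counting error of the called peak. The need was also set at the genome background, and local background can raise it. At EYA2 region 5 the local background was 0.589 fragments against a genome background of 0.0839.

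HRE cores were in the summit windows of 10 of the 22 peaks, or 45.5% (24.4% to 67.8%), against 51.1% of all peaks and 25.8% of windows 2 kb to either side of all peaks. The 10 windows belong to PAX2 region 2, to all the peaks of HNF4A and to EYA2 regions 2 and 4, which make 6 of the 14 regions. Overlapping windows of 1 region share cores, so the intervals over the 22 windows are too narrow here as well. An E-box was in 0 of 22 windows (up to 15.4%), against 6.47% of all peaks, so a share like that of the lists was not detectable as different. AP-1 was in 1 of 22 (15.9% of all peaks) and Sp1 in 4 (29.3%), at HNF4A region 2 under both shRNAs, at OSR1 and at EYA2 region 4. The RUNX motif AACCACA and the HNF4 motif CAAAGTCCA were in 0 of 22, against 5.69% and 0.304% of all peaks. For each motif the interval of the 22 windows contains the share of all peaks, and a match is a description of letters only.

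The number of members moved with the limit of 50 kb, from 9 regions at 10 kb to 17 at 100 kb. The farthest peak inside it was at HNF4A, 45.5 kb from the body (percentile 57.4), and the nearest outside it at PAX2, 60.7 kb away, a shBMAL1 HIF2α peak with a pileup of 3 at percentile 9.13.

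Beyond the 7 genes, 25 other regulator genes of kidney development and nephron identity were listed. Of these, 9 (36.0%) had a peak in any list and 3 (12.0%) in 2 or more. In each BMAL1 list 3 had a peak (12.0%) and in each HIF2α list 4 (16.0%). For any list and for each list the share was below that of all protein-coding genes given above, which is a description with no test. The window lengths of the 25 genes were not compared with those of all genes. The 3 genes in 2 or more lists were FOXC2, HOXA11 and LMX1B. The share of all protein-coding genes in 2 or more lists was not computed.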

How the data were processed

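Per the labels, 20 CUT&RUN libraries of A498 cells were grouped by the antibody and shRNA that their titles name, and 4 peak lists were analysed, each attached to 1 library of its group. The other 16 libraries were not analysed on their own. The authors aligned reads to hg19 (GRCh37) with Bowtie2 2.5.3, removed duplicates, called peaks with MACS2 2.2.9.1 (p limit 1e-05, maximum gap 400 bp) and removed blacklisted regions with bedtools 2.31.1. Pooling of replicates and the control library are not given in the sources used here. In the lists deposited by the authors, fold is the ratio (pileup + 1) / (local background + 1) at the summit, p-value and q-value stand as −log10, and a score column was not used.

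The fold and the p-value together gave back a whole-number pileup, to within 0.001 for 100% of peaks. Lists were compared by overlap of at least 1 bp and ranked by −log10 p, with percentiles averaged over ties. Genes and main transcripts were taken from GENCODE 44 mapped to GRCh37. Motifs were counted in 200 bp at the summit. Pileups carry exact Poisson intervals, shares exact Clopper-Pearson intervals, and ratios intervals from an exact binomial interval of both pileups.

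Genes, lists and tests were chosen with earlier results of these data known. All 7 genes and all their regions were named, with regions in 2 or more lists or in the top 10% in full. The 25 other renal genes were given as counts and named where in 2 or more lists: WT1, SIX2, EYA1, SALL1, GATA3, HNF4G, POU3F3, TFAP2A, TFAP2B, ESRRG, MECOM, IRX1, IRX2, IRX3, FOXD1, FOXC2, HOXA11, HOXD11, MAF, TFCP2L1, OSR2, LMX1B, TBX18, EMX1 and FOXI1. Some genes and 1 motif of the original rule are not reported here. On simulated data the pileup was recovered for 99.9% of 2929 peaks, overlap for 100% of 2000 and motifs for 100% of 500. The motif simulation included neither the HNF4 motif nor the GCGTG form of the HRE core, and its other letters were A and T only. Python 3.11.15, numpy 2.4.6, scipy 1.17.1 and pandas 2.3.3 were used.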

Additional observations from a re-analysis of the deposited data

How the results depend on the processing

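No paired analysis was possible because each group had 1 peak list, and for the same reason no replicate could be left out. Of 83 counts and shares recomputed under an alternative, 62 kept their value within the limits set and 21 moved. The share of peaks overlapped by the other antibody was 9.09% both with 50% overlap of the shorter peak and with summits within 200 bp, and 0% at a −log10 p of at least 8. The share with an HRE core was 13.6% in 100 bp windows and 72.7% in 400 bp windows. The shCNT BMAL1 list kept 3 peaks at a −log10 p of at least 8, 2 within 10 kb and 1 at 1 gene where the nearest start was the gene's own. The shBMAL1 BMAL1 list kept 2 peaks at 2 genes at a −log10 p of at least 8, in lists shortened to 2350 peaks, within 10 kb and at a pileup of at least 5, and 3 peaks at 3 genes where the nearest start was the gene's own. Within 10 kb there were 9 regions, and within 100 kb the shBMAL1 HIF2α list had peaks at 6 genes. The BMAL1 counts and the sharing of sites between antibodies depended on these choices. Ranked by fold, no percentile moved by over 10 points. Ranked by pileup 4 did, among them EYA2 region 5 (69.8 to 92.0) and the shBMAL1 HIF2α peak of EYA2 region 4 (38.3 to 68.2), and 4 peaks changed side of percentile 50. The cause of these shifts was not tested.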

Other observations

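Among the 25 other renal genes, HOXA11, a homeobox factor of the embryonic kidney, had 11 peaks in its window, 4 in the shCNT BMAL1 list, 5 in the shBMAL1 BMAL1 list and 1 in each HIF2α list. They were spread over the neighbouring HOXA genes, and the share of all gene windows with as many peaks was not computed. The start of HOXA5 (chr7:27182995-27183403) was called in all 4 lists. Its percentiles were 37.7 (shCNT) and 48.5 (shBMAL1) for BMAL1 and 64.4 (shCNT) and 18.3 (shBMAL1) for HIF2α. The summits lay 57 to 123 bp from the HOXA5 start and no window held an HRE core or an E-box.

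FOXC2, a forkhead factor of kidney and vessel development, had 3 peaks, all under shCNT. A BMAL1 peak at percentile 67.6 and a HIF2α peak at percentile 19.2 overlapped there, and their nearest start was that of FOXL1, about 2.5 kb away. LMX1B, a podocyte factor, had 1 shBMAL1 HIF2α peak at percentile 31.3 and 1 shBMAL1 BMAL1 peak at percentile 37.7 that overlapped each other.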
